A study of Mus musculus with 4 samples.

Results

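The genes described here encode the machinery of the motile cilium and were taken by name: a gene was a member when its symbol began with Dnah, Dnai, Dnali, Cfap, Rsph, Tekt or Ift followed by a digit. Of 31053 genes in the count matrices, 71 met this rule. They were 26 Cfap genes, 17 dynein arm genes (16 named Dnah and 1 named Dnali), 15 Ift genes, 8 Rsph genes and 5 Tekt genes, and they lay on 18 chromosomes. No gene began with Dnai, because the matrices use the older names Dnaic1 and Dnaic2 for those chains. The antisense genes among the 71, Dnah2os and Ift88os, are not protein-coding, and Ift88os had 0 unique molecular identifiers (UMIs, tags that each mark 1 captured RNA molecule) in any barcode.

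A motile cilium is built around the axoneme, a ring of doublet microtubules with a central pair. Dynein arms, made of heavy chains (Dnah genes) and smaller chains such as Dnali1, slide the doublets past each other, radial spokes (Rsph genes) carry signals between the center and the arms, and tektins (Tekt genes) are filaments inside the doublet wall. Cfap genes were named for cilia and flagella associated proteins of many functions, and Ift genes encode the intraflagellar transport trains that build every cilium, including the single non-motile primary cilium that most cells carry. In the brain, ependymal cells line the ventricles and bear tufts of beating cilia, while the neighboring choroid plexus epithelium, which secretes cerebrospinal fluid, also bears cilia in groups.

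The brains of 4 male mice (C57BL/6J, P90) were taken whole, dissociated by enzymatic digestion and profiled by droplet-based 3′ single-cell RNA sequencing, with 1 library per animal. A pair of animals was processed without inhibitors (no inhibitors, replicates 1 and 2). For the other two (inhibitors, replicates 1 and 2), actinomycin D and triptolide, which block transcription, were present during perfusion, dissection and digestion, and anisomycin, which blocks translation, during dissection and digestion. The labels give no genotype beyond the strain and place the 4 libraries in a single batch.

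The libraries held 2571 to 3597 barcodes and 5134359 to 7529804 UMIs. After filtering, 9861 cells were kept and clustered with the 71 genes and 115 other cilium genes withheld from the clustering, and 14 classes were named from markers that include none of the 71. The ependymal-like class held 189 cells (37 to 54 per animal) and carried all 8 ependymal markers, among them Tmem212 and Rarres2. The choroid plexus-like class held 619 cells (122 to 195 per animal) and carried all 10 of its markers, among them Ttr and Kl. Each pair of libraries shared 5 to 10 barcode sequences, none of them in ependymal-like cells.

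Levels are given as CPM, the UMIs of a gene scaled to the total UMIs of a class in 1 animal, and as the mean ± SD over the 4 animals. Because a 3′ library yields a UMI for each captured transcript end whatever the transcript's length, CPM was not divided by length. Class sums measure RNA relative to the other RNA of the class and do not separate RNA per cell from capture. Differences in level between classes are descriptions, and only the effect of inhibitors was tested.

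Ependymal-like cells were by far the richest source of these transcripts. They made up 1.92% of kept cells and 4.03% of all UMIs, but held 9583 of the 23438 UMIs of the 71 genes (40.9%). Summed over the 71 genes, ependymal-like cells contained 11884 and 10653 CPM without inhibitors and 11897 and 11544 CPM with inhibitors. The 4 animals therefore lay within a narrow range, with a mean of 11494 ± 584 CPM (n = 4), and the groups overlapped. The next class was the choroid plexus-like epithelium at 1850 ± 159 CPM, followed among the 9 classes with at least 20 cells in every animal by neuron-like cells at 921 ± 65 CPM and astrocyte-like cells at 780 ± 11 CPM. Microglia-like cells, the largest class, had 392 ± 27 CPM.

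**Figure D1:**
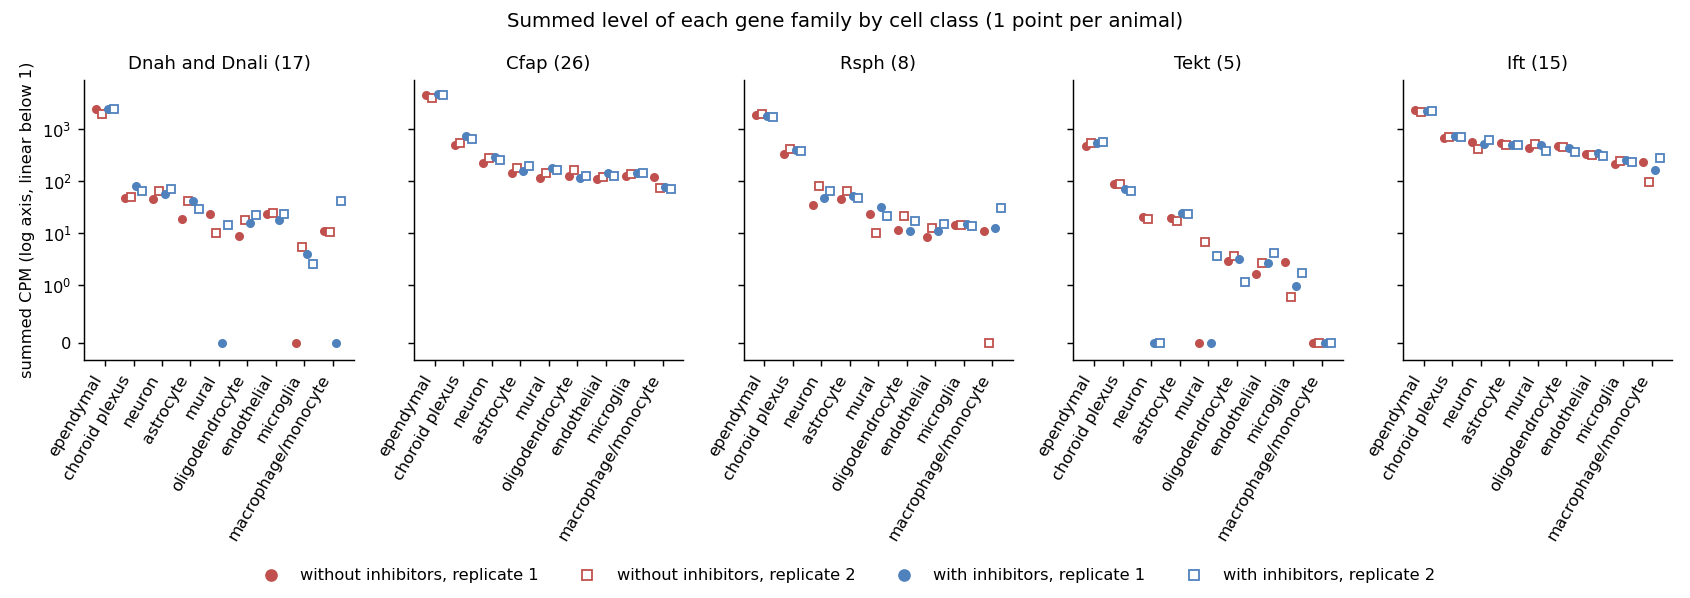
Summed CPM of each gene family (log axis, linear below 1) in 9 cell classes, with 1 point per animal colored by inhibitor group. In all 5 families the ependymal-like points are highest; choroid plexus-like points come next except in the dynein arm family, where they overlap the neuron-like points, and the Ift family falls off least from class to class.

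Of the 70 genes with a UMI in kept cells, 64 had their highest mean level in ependymal-like cells among the 9 classes. The families differed in how far they shared this pattern. Dynein arm genes were the most restricted: their summed level in choroid plexus-like cells was 2.61% ± 0.54 of the ependymal-like level, about that of neuron-like cells (2.59% ± 0.64), and in microglia-like cells it was 0.136% ± 0.117. The choroid plexus-like level was 13.6% ± 1.9 of the ependymal-like one for Cfap, 14.7% ± 3.0 for Tekt, 20.4% ± 2.0 for Rsph and 31.9% ± 2.4 for Ift genes.

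Ift genes were also carried by classes that have no motile cilia. Their summed level was 23.5% ± 3.5 of the ependymal-like level in neuron-like cells, 22.5% ± 0.5 in astrocyte-like cells and 10.6% ± 1.2 in microglia-like cells. For this family, and for the broadly found Cfap20, Cfap36 and Cfap97, a name of motile cilium genes describes the measured levels less well than for the dynein arm, spoke and tektin genes.

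Single cells showed the same separation. After each cell was thinned to 1000 UMIs, ependymal-like cells (173 cells; 16 were shallower) had a mean of 9.43 of the 71 genes detected, with the 5th to 95th percentile of cells from 5 to 15. The animal means were 9.53 and 8.53 without inhibitors and 10.42 and 9.19 with them. Choroid plexus-like cells (516 cells, 103 shallower) had a mean of 1.78, with 0 to 4 between the same percentiles, and microglia-like cells (2727 cells, 487 shallower) a mean of 0.371. Without thinning, the medians were 24, 3 and 0 genes per cell at median depths of 3353, 2085 and 1380 UMIs.

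At the common depth, 144 of 173 ependymal-like cells (83.2%) had a UMI of a dynein arm gene. In choroid plexus-like cells it was 31 of 516 (6.01%; 95% Wilson interval 4.26% to 8.40%), and in microglia-like cells, which lack motile cilia, 8 of 2727 (0.293%; 0.149% to 0.578%). The part of free RNA in these shares was not tested. Without thinning, the shares were 89.9%, 14.4% and 0.436%. Intervals cover counting error only. At least 5 of the 71 genes were detected in 165 ependymal-like cells, 22 choroid plexus-like cells and 2 astrocyte-like cells, and in 0 cells of the other 11 classes. The cutoff of 5 genes equals the 5th percentile of the ependymal-like cells, so their own high count follows from it.

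**Figure D2:**
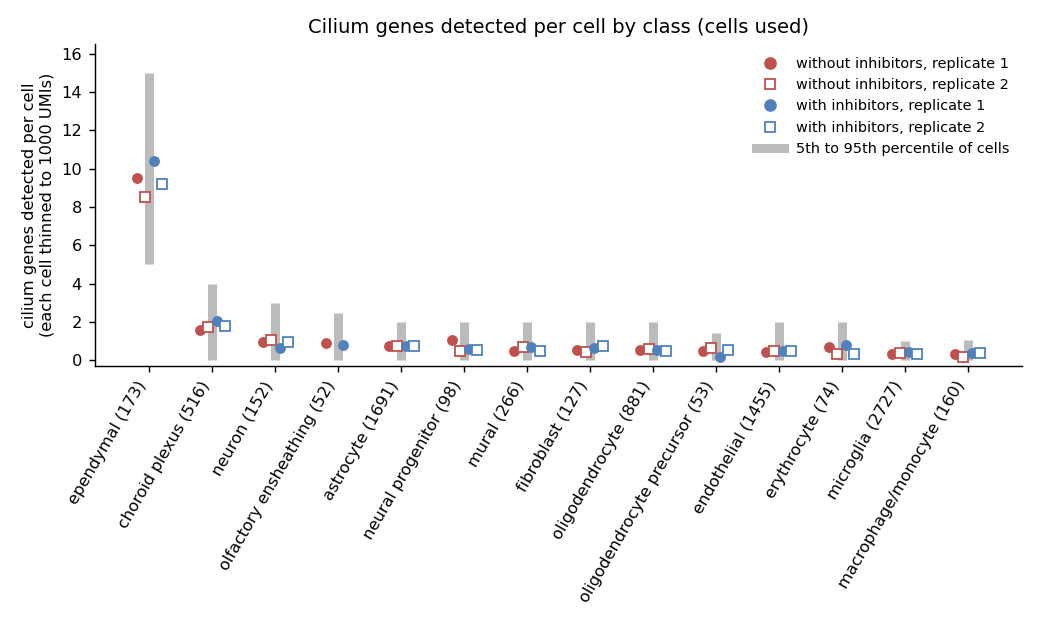
Number of the 71 genes detected per cell after each cell was thinned to 1000 UMIs, by class, with the number of cells used in brackets. Points are animal means colored by inhibitor group and grey bars span the 5th to 95th percentile of cells; the ependymal-like bar, from 5 to 15 genes, does not meet the choroid plexus-like bar, from 0 to 4.

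The regulators of multiciliated cells bind known letters in promoters, so the stretch around each start site was searched. RFX factors bind the X-box, whose core is GTTGCC, and FOXJ1 is a forkhead factor, a family that binds GTAAACA. RefSeq promoter windows on GRCm38.p6, from 250 bases before to 50 bases after each start, were available for 56 of the 71 genes (63 windows). GTTGCC on either strand was found in 22 of the 63 windows (34.9%), against 12.5% of all 32851 windows of the same length. By gene, 20 of 56 had it: 3 of 5 Tekt, 5 of 11 Ift, 7 of 20 Cfap, 4 of 15 dynein arm and 1 of 5 Rsph genes.

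The forkhead letters GTAAACA were in 4 of 63 windows (6.35%), against 3.65% of all windows. The whole X-box (GTTNCC, a gap of 0 to 3 letters, GGNAAC), which overlaps the core search, was in 1 window, that of Ift57, against 0.804% of all windows. These are matches of letters on either strand, not measured binding. The following 7 matched stretches belong to genes whose levels are described here and are given with 1 match of the core or its reverse complement in capitals (that of Tekt1 ends in a further match, left in lower case), read 5′ to 3′ on the strand of the gene. Each lies outside annotated exons.
Tekt1, chr11:72361892-72361937, minus strand: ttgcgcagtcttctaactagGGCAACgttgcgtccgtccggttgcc
Cfap20, chr8:95434938-95434983, minus strand: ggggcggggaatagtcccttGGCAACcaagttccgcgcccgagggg
Ift57, chr16:49699187-49699232, plus strand: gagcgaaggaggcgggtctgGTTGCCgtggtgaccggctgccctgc
Ift140, chr17:25015957-25016002, plus strand: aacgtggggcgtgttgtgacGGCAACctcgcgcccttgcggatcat
Dnah7a, chr1:53706959-53707004, minus strand: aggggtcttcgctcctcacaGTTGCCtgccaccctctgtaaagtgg
Dnah7b, chr1:46066670-46066715, plus strand: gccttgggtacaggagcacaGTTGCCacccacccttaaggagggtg
Dnah7c, chr1:46425279-46425324, plus strand: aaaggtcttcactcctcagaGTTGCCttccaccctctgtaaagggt

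Among dynein arm genes, Dnali1, an inner arm light intermediate chain, was highest in ependymal-like cells. Its levels were 343 and 368 CPM without inhibitors and 338 and 390 CPM with inhibitors (360 ± 24 CPM). The inner arm heavy chain Dnah12 (chr14:26693274-26891703) had 356 and 239 CPM without and 406 and 412 CPM with inhibitors (353 ± 80 CPM). The values of both genes and of the inner arm heavy chain Dnah6 (311 ± 13 CPM) overlapped between genes across the animals, and the outer arm heavy chains Dnah5 (269 ± 38 CPM) and Dnah9 (240 ± 37 CPM) came next.

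The heavy chains were low in choroid plexus-like cells, and some of them were close to undetectable. Dnah12 had 0 UMIs there against 291 in ependymal-like cells, which allows at most 0.416% of the ependymal-like level (3 UMIs over the class). Dnah5 had 1 UMI against 222, a level of 0.182% of the ependymal-like one (95% counting interval 0.0046% to 1.02%), and Dnah10 1 UMI against 138 (0.293%, 0.0074% to 1.66%). Dnah3 and Dnah7c also had 0 UMIs. The highest ratios of dynein genes in choroid plexus-like cells were those of Dnali1 (38 UMIs, 5.10%, 3.54% to 7.16%), Dnah11 (11 UMIs, 4.88%, 2.35% to 9.15%), Dnah7b (6 UMIs, 4.41%, 1.55% to 10.2%) and Dnah6 (25 UMIs, 3.90%, 2.48% to 5.89%), whose intervals overlapped, and no dynein gene with at least 20 ependymal-like UMIs exceeded 5.10%.

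**Figure D3:**
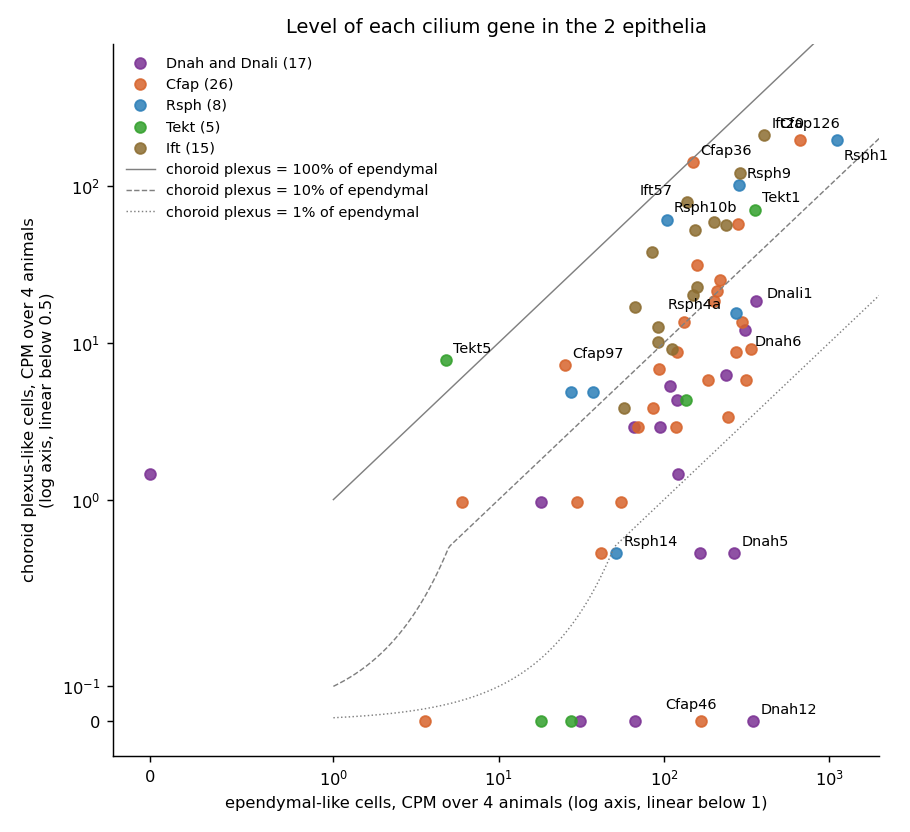
Level of each gene in ependymal-like (x axis) and choroid plexus-like cells (y axis) as CPM over the 4 animals pooled, on log axes that are linear near 0, colored by family; the lines mark equal levels and 10% and 1% of the ependymal-like level. Dynein arm genes with ependymal-like UMIs lie below the 10% line, with Dnah12 at 0 in choroid plexus-like cells (the antisense Dnah2os, at 0 in ependymal-like cells, lies at the left edge), whereas most Ift genes and Cfap36, Rsph10b, Rsph9 and Cfap126 lie above it.

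Radial spoke genes split. Rsph1 (chr17:31255019-31277383 on GRCm38), a spoke head gene, was the most abundant of the 71 genes in ependymal-like cells, at 1147 and 1258 CPM without inhibitors and 998 and 1007 CPM with inhibitors (1103 ± 124 CPM). The groups did not overlap but the gene was not called in the test described further on. The other spoke head genes followed at 279 ± 48 CPM for Rsph9, 271 ± 20 CPM for Rsph4a and 109 ± 37 CPM for Rsph10b, with the family member Rsph14 at 52 ± 10 CPM. Rsph10b reached in choroid plexus-like cells 58.5% of the ependymal-like level (44.2% to 77.8%), Rsph9 35.3% (29.2% to 42.7%) and Rsph1 17.6% (15.6% to 19.8%).

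By contrast Rsph4a reached 5.64% (3.77% to 8.19%) and Rsph14 0.939% (0.023% to 5.52%, 1 UMI). The intervals of Rsph10b and Rsph4a, genes of the same structure, did not meet, but they cover counting error only and not the spread between animals. In microglia-like cells Rsph1 was at 4.1 CPM against 197 ± 29 CPM in choroid plexus-like cells. Ependymal markers were also scarce in choroid plexus-like cells: Tmem212 stood at 0.182% of its ependymal-like level, Rarres2 at 0.558%, Cd24a at 0.828% and Krt15 at 0 UMIs, while Hdc stood at 4.07%, Mia at 9.29% and Pltp at 10.7%.

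Tektins were led by Tekt1 (chr11:72344722-72362442; 355 ± 38 CPM) and Tekt4 (135 ± 5 CPM) in ependymal-like cells. Tekt4 varied little between animals, at 136 and 137 CPM without and 129 and 139 CPM with inhibitors. Tekt1 kept in choroid plexus-like cells 19.9% (16.2% to 24.3%) of the ependymal-like level and Tekt4 3.22% (1.43% to 6.33%). Tekt3 (25 ± 12 CPM in ependymal-like cells) and Tekt2 (16 ± 12 CPM) had 0 UMIs in choroid plexus-like cells, which allows up to 5.27% and 8.08% of the ependymal-like level. Tekt5 was the only tektin with a higher mean in choroid plexus-like cells, at 8.9 ± 3.4 against 5.6 ± 5.4 CPM, on 16 and 4 UMIs.

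Of the Cfap genes, Cfap126 (chr1:171113918-171126967), which encodes a microtubule inner protein also known as Flattop, was the most abundant in ependymal-like cells (677 ± 107 CPM) and kept 29.1% (25.6% to 33.2%) of that level in choroid plexus-like cells. Cfap161 (339 ± 39 CPM), Cfap54 (325 ± 88 CPM), Cfap65 (297 ± 45 CPM) and Cfap20 (281 ± 63 CPM) came next, with overlapping ranges. Cfap54 and Cfap46 are genes of the central apparatus. Cfap54 stood at 1.84% (0.94% to 3.27%) of its ependymal-like level in choroid plexus-like cells, and Cfap46, at 165 ± 24 CPM in ependymal-like cells, had 0 UMIs there (at most 0.865%).

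Cfap36 stood apart from the family. It had 153 ± 38 CPM in ependymal-like and 145 ± 37 CPM in choroid plexus-like cells, a ratio of 94.7% (76.5% to 118%), and 75.2 CPM in oligodendrocyte-like cells. Its product binds ARL3, a small GTPase of ciliary membrane traffic. Arl3 itself had 361 ± 40 CPM in ependymal-like and 331 ± 57 CPM in choroid plexus-like cells.

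Among Ift genes, Ift20 was highest in ependymal-like cells at 407 ± 41 CPM, followed by Ift22 (285 ± 43 CPM), Ift43 (236 ± 47 CPM), Ift27 (203 ± 26 CPM) and Ift80 (162 ± 23 CPM). Ift43 belongs to the retrograde complex and the other 4 to the anterograde complex of the trains. Ift57 kept in choroid plexus-like cells 57.2% (44.8% to 73.3%) of the ependymal-like level, Ift20 51.9% (45.0% to 60.04%) and Ift74 44.4% (31.8% to 62.1%). The lowest ratio was that of the retrograde gene Ift140, at 6.73% (2.75% to 14.4%).

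Of the 70 genes, 7 were not highest in ependymal-like cells when all 14 classes were considered. Ift57 was highest in olfactory ensheathing-like cells, at 182 ± 3.5 CPM on 28 UMIs in the 2 animals for which that class gave a level, against 141 ± 27 CPM in ependymal-like cells. Cfap97 had 29.9 ± 2.8 CPM in microglia-like, 24.6 ± 8.6 CPM in ependymal-like and 8.0 ± 3.9 CPM in choroid plexus-like cells. The antisense RNA Dnah2os, transcribed opposite Dnah2, had 0 UMIs in ependymal-like cells, where Dnah2 had 101, and 43 of its 60 UMIs were in endothelial-like cells. Whether strand was used in the counting is not given in the sources used here, so the split of reads between these overlapping genes is uncertain. Besides Tekt5, the remaining 3 genes, Dnah8, Dnah17 and Rsph6a, had at most 10 UMIs in all kept cells.

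A few genes had clear secondary sites. They were chosen after their values were seen. Astrocyte-like cells contained Ift27 at 118 CPM, Rsph9 at 38.7 CPM, Cfap100 at 22.7 CPM and the inner arm heavy chain Dnah7b at 20.1 CPM. Rsph9 was not particular to them, at 92.6 CPM in choroid plexus-like and 34.1 CPM in fibroblast-like cells. In olfactory ensheathing-like cells it was at 56.6 CPM, over the 2 animals with a level for that class. Most Dnah7b UMIs lay in the astrocyte-like cluster led by Agt and Slc6a11 (49 UMIs, 35.5 CPM), the largest of the 4. The small cluster led by Gdf10 was at a like level (8 UMIs, 36.2 CPM), that with Gfap among its leading genes had 3 UMIs (15.5 CPM), and the one led by Hapln1 and Lhx2 had 5 UMIs (3.50 CPM). The paralogs Dnah7a and Dnah7c, whose promoter stretches are shown above, had 6 and 1 UMIs in astrocyte-like cells against 65 for Dnah7b, while in ependymal-like cells the order was Dnah7a (79 UMIs), Dnah7b (55) and Dnah7c (26). These 3 genes, like Rsph3a and Rsph3b, are near-identical copies, so the counting could divide their reads wrongly.

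Microglia-like cells contained Cfap74 at 20.9 CPM (94 UMIs), with 15.5 to 24.3 CPM in each of their 3 clusters, against 87.9 ± 16.1 CPM in ependymal-like cells. Oligodendrocyte-like cells contained the dynein heavy chain gene Dnah14 at 11.95 ± 3.2 CPM (33 UMIs), below its 19.4 ± 10.9 CPM in ependymal-like cells. No other class had more UMIs of either gene than these.

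The effect of inhibitors was tested in each class on UMIs summed per animal, with edgeR's quasi-likelihood test over all genes. A gene was called when its Benjamini-Hochberg adjusted p was under 0.05 and its absolute log2 fold change, without inhibitors over with inhibitors, exceeded 0.58. With 2 animals per group, p-values weigh a group difference against the spread within the groups of these 4 animals. That spread was estimated with information shared over genes. Groups of 2 animals without overlap reach an exact permutation p of 0.333 at the lowest, so lack of overlap is given below as description only.

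In ependymal-like cells no effect of inhibitors on the cilium genes was detected. Of the 71 genes, 54 passed the filter on low counts and 0 were called, on a background of 0 of 4215 genes called (0.0%). At an unadjusted p under 0.05 there were 2 of the 54 (3.70%), against 164 of all genes tested (3.89%), and DESeq2 also called 0 genes. The 54 genes had a median log2 fold change of -0.09, against -0.00 for all genes, with 19 higher and 35 lower without inhibitors. Their median standard error was 0.29, so changes of the size of the threshold would often not be resolved for single genes.

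The 5 largest differences in ependymal-like cells were those of Cfap157 (-0.83, SE 0.42), the inner arm heavy chains Dnah2 (-0.75, SE 0.35), Dnah1 (-0.54, SE 0.33) and Dnah12 (-0.50, SE 0.20), and Cfap36 (0.48, SE 0.29), each with an adjusted p of 0.999. Dnah2 had 123 and 67 CPM without and 177 and 117 CPM with inhibitors, and the groups overlapped. Dnah12 did not overlap between groups, its 2 values without inhibitors (356 and 239 CPM) lying below those with inhibitors (406 and 412 CPM). The gap between the 2 animals without inhibitors exceeded the gap between the groups.

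In choroid plexus-like cells, 21 of the 71 genes passed the filter on low counts and 1, Rsph9, was called. This is 4.76% of the genes tested, near the 5.07% called among all 4655 genes (236, of which 195 were higher without inhibitors). Rsph9 (ENSMUSG00000023966, chr17:46122035-46144216) had 103 and 122 CPM without inhibitors and 70 and 75 CPM with inhibitors. The groups did not overlap, and Rsph9 was higher without inhibitors by 0.81 on the log2 scale (1.76-fold, SE 0.24, edgeR adjusted p = 0.031). The 21 genes had a median log2 fold change of 0.05, against -0.01 for all genes.

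The CPM of choroid plexus-like cells count Ttr in the class total, and the share of Ttr differed between animals, as given below. Cfap126 had 157 and 165 CPM without inhibitors and 284 and 251 CPM with inhibitors, with no overlap. Its log2 fold change of -0.576 (SE 0.16, adjusted p = 0.024) passed the p threshold but not the fold threshold. Tekt1 had 81 and 78 CPM without inhibitors against 53 and 44 CPM with inhibitors (0.85, SE 0.29, adjusted p = 0.064). Dnali1 (-1.18, SE 0.50, adjusted p = 0.16), Cfap52 (0.62, SE 0.59, adjusted p = 0.62) and Rsph10b (-0.61, SE 0.28, adjusted p = 0.20) were not called.

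**Figure D4:**
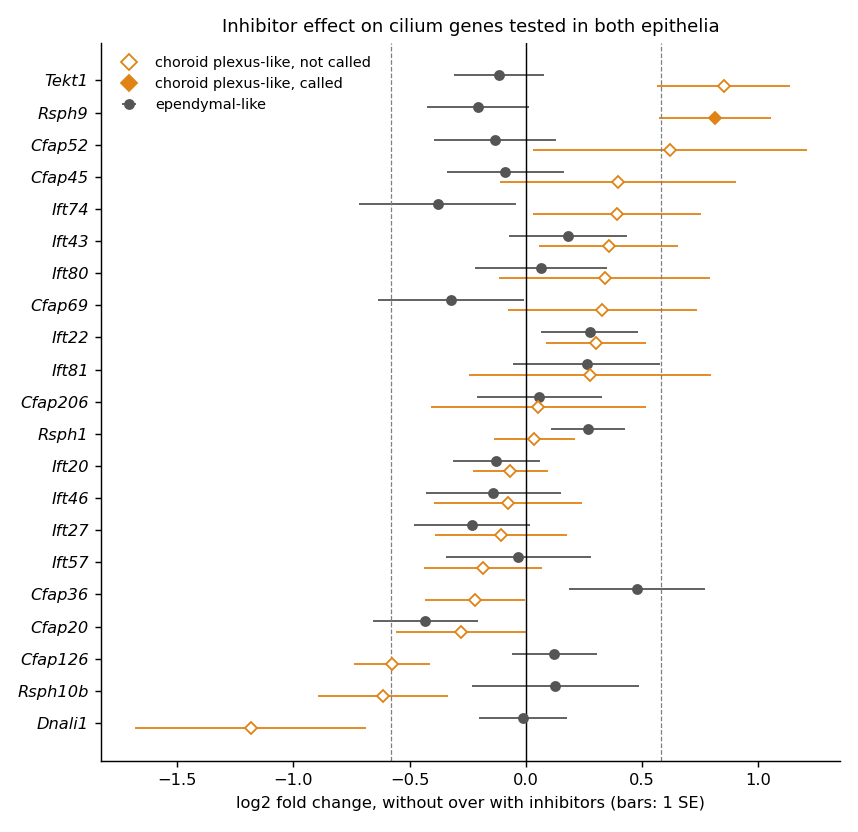
Log2 fold change without over with inhibitors for the 21 genes tested in both epithelia (circles, ependymal-like; diamonds, choroid plexus-like; bars, 1 SE; dashed lines, the fold threshold of 0.58). Rsph9 in choroid plexus-like cells, at 0.81, is the only filled diamond and thus the only call; every ependymal-like value lies between the dashed lines.

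The choroid plexus-like class consisted of 2 clusters that were unequally present in the groups. The smaller one, of 36 deep cells (median 12582.5 UMIs, against 1950 in the larger), gave 22.4% and 29.0% of the class UMIs without inhibitors and 12.2% and 13.4% with inhibitors. Rsph9 was higher in that cluster than in the larger one (143 against 88.9 CPM over all animals), and Cfap126 was lower (57.1 against 233 CPM). The summed level of the 71 genes was 1259 CPM in the smaller and 1973 CPM in the larger cluster. Ttr took up 36.1% and 25.4% of the larger cluster's total in the no inhibitors animals, but 19.9% and 18.5% in the inhibitors animals. The smaller cluster went the other way, at 29.5% and 28.5% against 33.7% and 32.6%. It held only 12 and 16 cells without inhibitors and 5 and 3 cells with inhibitors. Cells of the class were also deeper in the no inhibitors animals (medians of 2736 and 2378 against 1931 and 1340.5 UMIs). The part of Ttr or depth in the CPM gaps between groups was not tested.

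In an alternative chosen after seeing the data, the larger cluster was tested alone (164 genes called). Rsph9 was then at 0.65 (adjusted p = 0.164) and was not called, Cfap126 was at -0.39 (adjusted p = 0.169), and Tekt1 was at 1.07 (adjusted p = 0.033) and was called. Within the larger cluster Tekt1 had 86.9 and 101 CPM without and 57.1 and 40.8 CPM with inhibitors. With an animal left out, the lone library of its group is assumed to vary like the other group. The call of Rsph9 was then lost without no inhibitors replicate 2 (0.83, adjusted p = 0.060), inhibitors replicate 1 (0.76, adjusted p = 0.327) or inhibitors replicate 2 (0.87, adjusted p = 0.083), with fold changes near the 0.81 of all 4 animals.

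**Figure D5:**
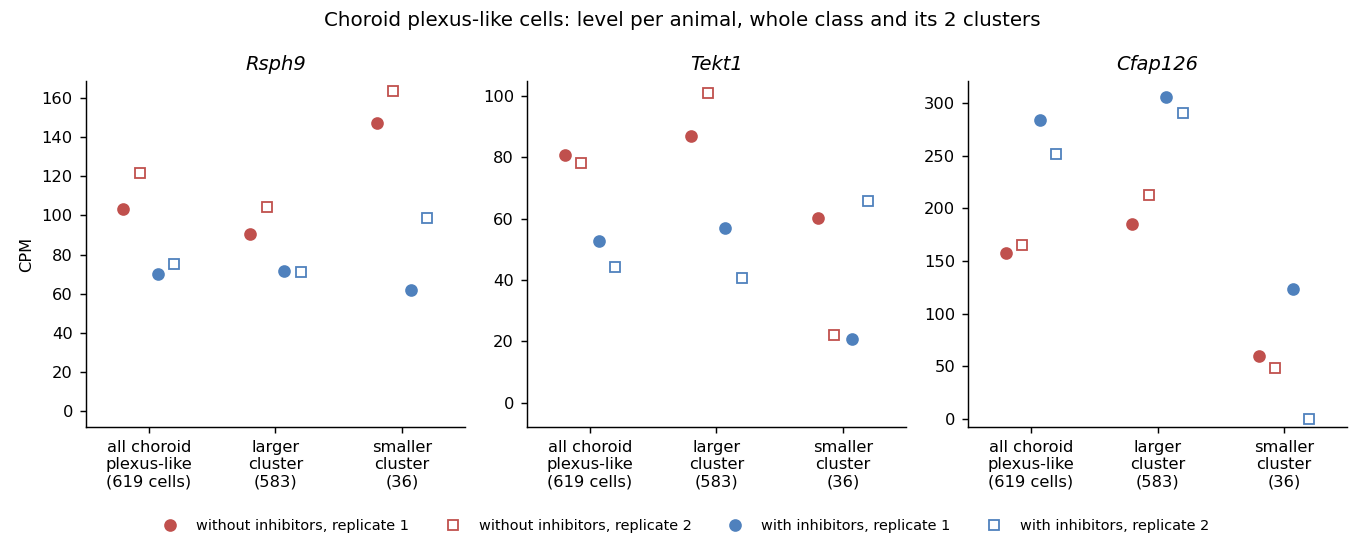
CPM of Rsph9, Tekt1 and Cfap126 per animal in all 619 choroid plexus-like cells, in the larger cluster (583 cells) and in the smaller cluster (36 cells), colored by inhibitor group. The groups are separate for all 3 genes in the whole class and in the larger cluster. The 3 genes were chosen for their group differences in this class, so this separation is no further support. The 2 clusters differ in level, with Rsph9 higher in the smaller one in 3 of 4 animals (61.8 against 71.4 CPM in inhibitors replicate 1) and Cfap126 lower in 4 of 4. In the inhibitors animals the smaller cluster had only 5 and 3 cells, with 3 UMIs of Rsph9 in each and 6 and 0 UMIs of Cfap126.

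Whether inhibitors acted differently in the 2 epithelia was tested as a class-by-group interaction with the animal as a block. Of 53 cilium genes tested, 0 differed, against 34 of all 5177 genes (0.657%), and 6 of the 53 (11.3%) had an unadjusted p under 0.05, against 448 of all genes (8.65%). The lowest adjusted p among them was that of Rsph9 (interaction log2 -1.04, ependymal-like minus choroid plexus-like, SE 0.38, adjusted p = 0.28). Tekt1 (-0.96, adjusted p = 0.40) and Cfap126 (0.66, adjusted p = 0.42) also did not pass. The different calls in the 2 classes are therefore not shown to be a difference between them.

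In the other 7 classes tested, 0 cilium genes were called in 55 tests by edgeR, 3 tests had an unadjusted p under 0.05, and DESeq2 also called 0. The 3 tests were those of Cfap36 (0.55), Ift27 (0.60) and Ift22 (0.56) in oligodendrocyte-like cells, all with an adjusted p of at least 0.352. In that class 9 cilium genes were tested, 8 of them higher without inhibitors, and 9.81% of all genes had an unadjusted p under 0.05. The background of called genes was 0.0359% in astrocyte-like, 0.0363% in endothelial-like, 0.462% in microglia-like, 0.107% in mural-like, 0.0289% in neuron-like and 0.201% in oligodendrocyte-like cells. It was 0.711% for the macrophage/monocyte-like class, where no cilium gene had enough counts to be tested. With all cells of an animal summed, 0 of 60 cilium genes were called on a background of 0.0507%, 2 had an unadjusted p under 0.05 (Dnah12, -0.68, and Cfap54, -0.54), and DESeq2 called 0 of them.

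Other genes of the cilium, in 7 lists with 115 measured genes, were summed in ependymal-like, choroid plexus-like and microglia-like cells only. The sum of each list fell in that order. Single genes departed from it, such as Dydc2, at 41.7 CPM in ependymal-like and 52.4 CPM in choroid plexus-like cells. Another was Pih1d1, at 24.6 CPM in ependymal-like and 38.4 CPM in microglia-like cells. The list of microtubule inner and doublet genes was highest, at 7196 ± 183 CPM in ependymal-like, 475 ± 70 CPM in choroid plexus-like and 39.4 ± 6.6 CPM in microglia-like cells, led by Ccdc153 (2478 ± 113 CPM in ependymal-like cells) and 1110017D15Rik (1450 ± 153 CPM). The ruler, nexin link, spoke and central apparatus genes summed to 4180 ± 186, 592 ± 25 and 19.2 ± 5.6 CPM, led by the spoke genes Lrrc23 (352 ± 37 CPM) and Nme5 (287 ± 58 CPM). The remaining dynein arm and docking genes summed to 2455 ± 132, 342 ± 78 and 46.9 ± 1.8 CPM.

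In that last list the light chain Dynlrb2 had 1133 ± 29 CPM in ependymal-like and 228 ± 70 CPM in choroid plexus-like cells, and the docking gene Ccdc114 had 213 ± 45 and 16 ± 4 CPM. Dnaic1 and Dnaic2, the intermediate chains that the naming rule missed, had 105 ± 33 and 174 ± 40 CPM in ependymal-like cells and 7.4 ± 2.3 and 8.5 ± 1.3 CPM in choroid plexus-like cells. The assembly factors summed to 1123 ± 33, 138 ± 20 and 93.4 ± 6.1 CPM in ependymal-like, choroid plexus-like and microglia-like cells, led by Zmynd10 (184 ± 14 CPM) and Pih1d2 (182 ± 11 CPM).

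The lists that serve all cilia were also found in microglia-like cells, the only class outside the epithelia in which they were summed. Other transport train subunits and motors, led by Ttc30b (235 ± 54 CPM) and Wdr35 (180 ± 33 CPM), summed to 1609 ± 136 CPM in ependymal-like, 301 ± 32 in choroid plexus-like and 122 ± 7 in microglia-like cells. Primary cilium and BBSome genes, led by Arl3 and Ttc8 (171 ± 31 CPM), summed to 1542 ± 108, 621 ± 47 and 228 ± 21 CPM. Bbs9 alone gave 80.1 CPM of the microglia-like sum, against 16.4 CPM in ependymal-like cells. Among the regulators (1550 ± 243, 165 ± 5 and 102 ± 7 CPM), Foxj1, the master regulator of motile ciliogenesis, had 826 ± 125 CPM in ependymal-like cells, 47.6 ± 15.7 CPM in choroid plexus-like cells and 1.3 CPM in microglia-like cells. Myb, which promotes multiciliated cell formation, had 166 ± 37 CPM in ependymal-like cells and 0 UMIs in choroid plexus-like cells. Of the microglia-like sum of the regulators, E2f4 alone gave 49.0 CPM.

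In the tests of inhibitors, 0 genes of the 7 lists were called in ependymal-like cells, where 11, 10, 22, 12, 14, 7 and 14 genes were tested in the order of dynein arm and docking genes, assembly factors, ruler and spoke genes, microtubule inner genes, transport genes, regulators and primary cilium genes. Of the 15 regulators, 7 were tested, and all 7 had values below 0, with no adjusted p below 0.999. Their median log2 fold change was -0.43, against -0.00 for all genes tested in the class. Their shared direction was not tested. In choroid plexus-like cells 1 of 32 genes tested from the 7 lists was called (3.13%, against 5.07% of all genes), the microtubule inner gene 1110017D15Rik. It had 123 and 165 CPM without and 259 and 238 CPM with inhibitors (-0.62, SE 0.17, adjusted p = 0.020), and it was not called in the larger cluster alone (-0.48, adjusted p = 0.122). Dynlrb2 (-0.57, SE 0.16, adjusted p = 0.027) did not pass the fold threshold.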

How the data were processed

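Single-cell suspensions from 4 mouse brains were measured with 10x Genomics 3′ version 2 chemistry. The authors made raw UMI counts per gene and barcode with Cell Ranger 3.0.0 on mm10 and deposited them unnormalized; their submission notes also name bcl2fastq and Seurat. The build of the counts is GRCm38. Barcodes with fewer than 400 genes or over 20% mitochondrial UMIs (2420) and 206 scored doublets were removed, leaving 9861 cells. Counts per cell were scaled to 10000 and logged for clustering (2000 variable genes, 30 components, leidenalg 0.10.2, resolution 1), with cilium genes left out. A cluster was named from at least 3 markers. Counts summed per animal and class were tested with edgeR 4.0.16 (filterByExpr, TMM, robust quasi-likelihood), with DESeq2 1.42.0 as an alternative, and the script was tested on simulated data. Named genes were the 5 highest per family in ependymal-like cells, called genes, the 5 largest fold changes per epithelium, genes highest elsewhere, and the 2 highest of each list. The genes, lists and tests were chosen with earlier results of these data known. Ranked ratios between classes used genes with at least 20 ependymal-like UMIs, a minimum set after the data were seen. Alternatives covered normalization, filters, clustering, doublets, depth, a replicate block and leaving out each animal.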

Additional observations from a re-analysis of the deposited data

Results flagged for a closer look

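The barcodes removed by the cell filter, which no comparison used, were not free of these transcripts. The 2420 barcodes held 1993 UMIs of the 71 genes, or 579.7 CPM, against 1128 CPM in all kept cells and 392 CPM in microglia-like cells. By library the value was 487 and 419 CPM without inhibitors and 918 and 709 CPM with inhibitors. Rsph1 had 91 UMIs and Dnah12 25 UMIs among them. These barcodes had a median of 765.5 UMIs and 13.5% mitochondrial UMIs, and the part of either in the signal was not tested.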

How the results depend on the processing

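The count of cilium genes called was 0 in ependymal-like cells, in the other classes, in all cells and in the interaction under every alternative run. In choroid plexus-like cells it was 0 with DESeq2 (which gave Rsph9 no adjusted p) and with no filter on low counts, 2 with the replicate block, 3 with no doublet removal and 1 to 2 when an animal was left out. Genes called in choroid plexus-like cells were 71 with DESeq2 and 149 to 234 without an animal. In ependymal-like cells they were 2 with no filter, 6 with the block and 0 to 25 without an animal, in the other classes 42 with DESeq2, 137 with no filter, 132 with the block and 88 to 175 without an animal, in all cells 41, 160, 36 and 0 to 75, and for the interaction 19 with Ttr left out of the totals and 1 to 49 without an animal. The main tests did not treat same-numbered animals as pairs. Deviations of same-numbered animals from their group means correlated at 0.065. With 2 animals per group this is 1 value for both pairs by construction, and it cannot exclude pairing. With the block Tekt1 (0.89, adjusted p = 0.031) joined Rsph9 (0.80, adjusted p = 0.020). Over 13 alternatives Rsph9 had an adjusted p of 0.020 to 0.327 and was called in 7. Cfap52 reversed in choroid plexus-like cells when inhibitors replicate 1 was left out (-0.24; 1.56 without inhibitors replicate 2). The summed choroid plexus-like level rose from 1850 to 2225 CPM under the strict cell filter and 2493 CPM with Ttr left out, or 19.4% and 21.7% of the ependymal-like level (dynein arm genes, 3.49% with Ttr left out). Left-out animals moved it between 1786 and 1913 CPM, and the ependymal-like one between 11360 and 11775 CPM. Genes per cell were 5.21 and 16.8 in ependymal-like and 0.910 and 3.14 in choroid plexus-like cells at 500 and 2000 UMIs, and 2.16 in the latter under the strict filter. The causes were not tested. The 2 choices on the choroid plexus clusters and Ttr were made after seeing the data. With 37 to 54 ependymal-like cells per animal, depth limits single genes: 17 of 71 could not be tested there and 50 in choroid plexus-like cells.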

Other observations

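The 206 barcodes removed as doublets held 526 UMIs of the 71 genes, or 834 CPM, with 613 to 1090 CPM in the 4 libraries. Some classes also carried single genes of the 71 at levels above most others: olfactory ensheathing-like cells had Tekt1 at 53.0 CPM on 8 UMIs in the 2 animals for which that class gave a level, and mural-like cells had Ift43 at 78.6 CPM on 78 UMIs, near the 74.6 CPM of oligodendrocyte-like cells (202 UMIs).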
